A study of Bos taurus with 4 samples.

Results

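The genes described here are the WNT ligands with their receptors, secreted inhibitors and close signalling partners, taken as every probe whose symbol in the platform annotation begins with WNT, FZD, SFRP, DKK or RSPO followed by a digit, is LRP5, LRP6, AXIN1 or AXIN2, or begins with TCF7. This rule found 45 genes among the 15216 named genes of the array, on 50 probes. They were 17 WNT ligands, 9 Frizzled receptors, 2 LRP co-receptors, 4 R-spondins, 4 secreted Frizzled-related proteins (SFRP), 4 Dickkopf proteins (DKK), 2 AXIN proteins and 3 TCF7 family transcription factors. No measured value entered the rule.

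The study measured granulosa cells, which surround the oocyte inside the ovarian follicle, from Holstein cows of a commercial embryo production facility. The design text counts 94 animals, sampled after ovarian stimulation and coasting, a period without gonadotrophin before the follicles are aspirated. Good donors gave mostly oocytes competent to form embryos in vitro, poor donors mostly incompetent ones. RNA was hybridised to 4 two-colour oligonucleotide arrays, on each of which a pool of good donors met a pool of poor donors. Good-donor pools 1 and 2 were labelled with Cy5 and poor-donor pools 5 and 6 with Cy3 on arrays 1 and 2. On arrays 3 and 4 the dyes were exchanged, with poor-donor pools 7 and 8 in Cy5 and good-donor pools 3 and 4 in Cy3. The labels give neither the ages of the cows nor how many of them entered a pool, so each pool is a mixture of an unknown number of cows. Pools of cells are bulk samples, in which fewer cells of a type and less RNA per cell cannot be told apart.

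WNT proteins are secreted, lipid-modified signals that bind a Frizzled receptor together with LRP5 or LRP6. Binding draws AXIN away from the complex that degrades beta-catenin, which then enters the nucleus and activates genes with the TCF7 family of DNA-binding factors. SFRP proteins bind WNT ligands outside the cell, DKK1 blocks the LRP co-receptors, and R-spondins keep Frizzled and LRP receptors at the cell surface. In the ovary this pathway is known for its part in female gonad development, through RSPO1 and beta-catenin, and for acting with FSH on the genes of oestradiol synthesis in granulosa cells.

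A level below is a log2 intensity after background correction, normalization within each array and scaling of the arrays to one distribution. The 153 structural negative controls, spots with no matching transcript, had mean levels of 6.18 to 6.23 in the 8 pools with SDs of 0.0749 to 0.103. A probe was called above background in a pool where its raw intensity was more than 2 SD over the mean of these controls in the same channel, a limit that 0.654% to 3.92% of the controls themselves passed. A ratio is the log2 difference of the poor-donor over the good-donor pool on 1 array, so that values above 0 were higher in poor donors. Where 1 of the pools was not above background, the ratio is given as measured, and it is no exact difference. Ratios were fitted with limma with a dye term for the probes that all 4 good-donor pools, all 4 poor-donor pools or both showed above background, and p-values were adjusted over all 26181 such probes by the Benjamini-Hochberg method. Between 64.3% and 72.7% of all probes were above background in a pool. Of the granulosa cell markers 11 of 12, FSHR and CYP19A1 among them, were above background in all 8 pools, and the mean level of the list was 11.2 to 11.5 in good-donor and 11.2 to 11.4 in poor-donor pools. FOXL2, the exception, was above background in 7 pools with levels of 6.33 to 6.88, and AMHR2 measured 6.94 to 7.43. GATA4 (-0.22 ± 0.15) and NR5A2 (-0.25 ± 0.03) had ratios below 0 on all 4 arrays, with adjusted p-values of 0.830 and 0.822 in limma. The other granulosa cell markers had ratios of both signs. INHA, 1 of these, averaged -0.60 ± 1.32 (unadjusted p = 9.4e-04, adjusted p = 0.822, limma). Without a dye term its unadjusted p in limma was 0.252. Stromal markers, all 6 above background in all 8 pools, had mean levels of 8.94 to 10.1 in good-donor and 9.61 to 10.2 in poor-donor pools. Among them LUM (1.85 ± 1.25), COL1A1 (0.46 ± 0.27) and COL3A1 (0.37 ± 0.33) had ratios above 0 on all 4 arrays, with adjusted p-values of 0.822, 0.822 and 0.830 in limma. DCN (0.02 ± 0.52), TCF21 (0.01 ± 0.75) and PDGFRA (0.56 ± 2.23) had ratios above 0 on 2 arrays and below 0 on 2. Leukocyte markers, 7 of 7 in all 8 pools, had mean levels of 7.31 to 7.60 in good-donor and 7.11 to 7.90 in poor-donor pools. Of these CD3E (-0.44 ± 0.41, adjusted p = 0.830, limma) had ratios below 0 on all 4 arrays, and the others had ratios of both signs. Mean levels of theca markers (4 of 5 in all 8 pools) were 8.13 to 8.27 and 8.06 to 8.37, and those of cumulus markers (2 of 3) 7.43 to 10.2 and 8.32 to 9.42. Markers of surface or tubal epithelium, 7 of 10 in all 8 pools, spanned 7.85 to 9.65 and 8.66 to 9.28. Of the endothelial markers 1 of 5 was above background in all 8 pools and PECAM1 in none. The part of these cell types in the results was not tested.

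Most WNT family genes were at or near the level of the negative controls in these granulosa cells. Of the 45 genes, each taken by its brightest probe, 14 (31.1%) were above background in all 8 pools, 26 in 1 to 7 pools and 5 in none. The shares over the whole array were 51.7% of all probes and 65.2% of all named genes by their brightest probe. The genes above background in all 8 pools were the ligands WNT2B, WNT5B and WNT6, the receptors FZD1, FZD3 and FZD7, the co-receptors LRP5 and LRP6, RSPO1, DKK3, AXIN1, AXIN2, TCF7 and TCF7L1. Passing the limit does not by itself show expression in granulosa cells. Of the 6 oocyte markers on the array, BMP15 and ZP3 also passed it in all 8 pools, with mean levels of 6.64 and 6.58. ZP2 passed it in 4 pools, ZP4 in 3, and GDF9 and DPPA3 in 1 each. WNT5B and FZD7 had mean levels of 6.58 and 6.53. WNT1, WNT5A, WNT10A, FZD10 and SFRP4 were above background in no pool, and their levels lay between -0.28 and 0.11 relative to the mean of the negative controls. A gene below the limit has only an upper bound on its level there.

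**Figure D1:**
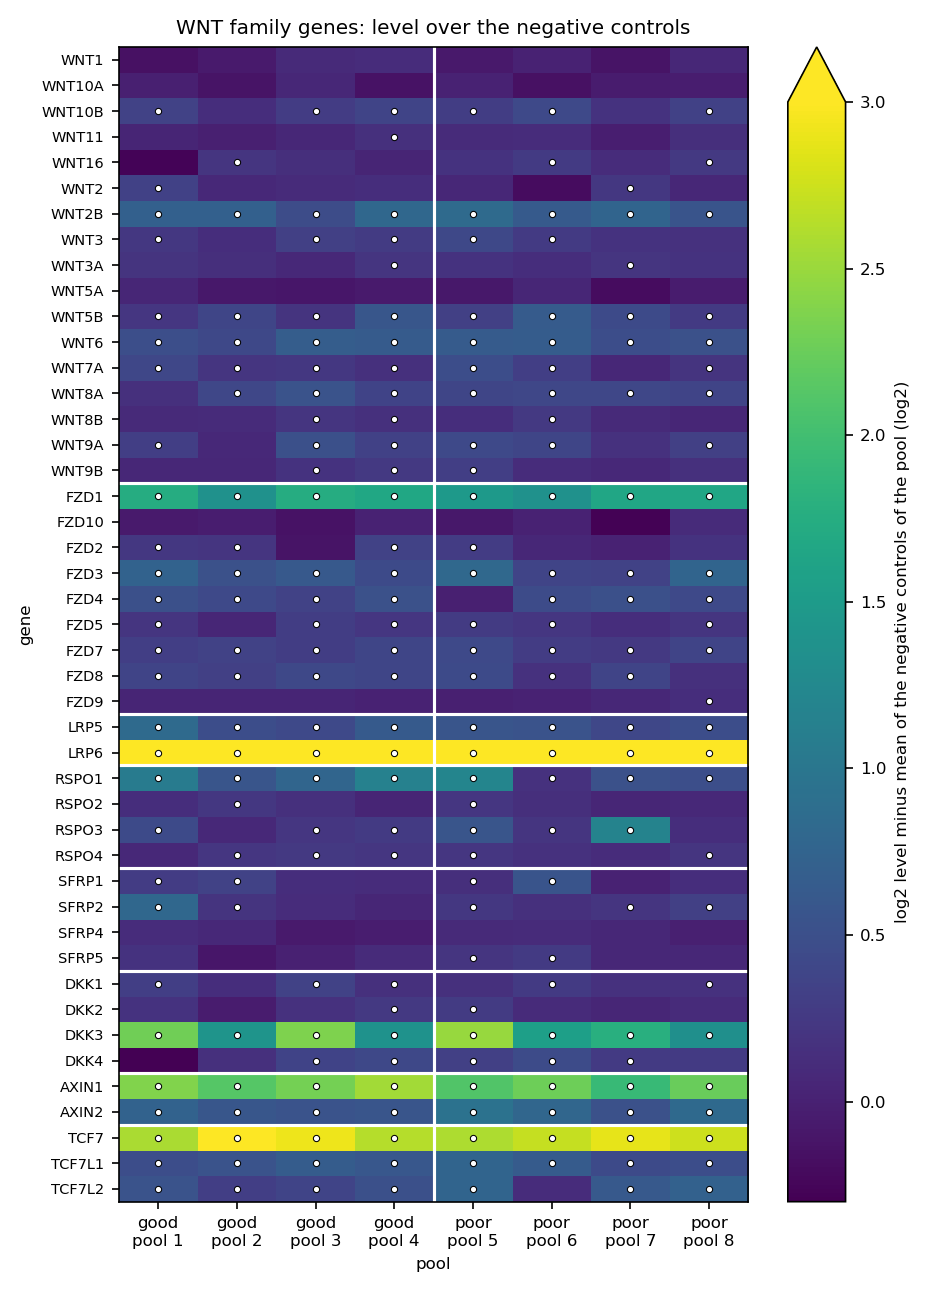
Level of each of the 45 WNT family genes (rows, grouped by role) in each of the 8 pools (columns), as the log2 level minus the negative control mean in the same pool. White points mark values above background. Colours stop at 3. FZD1, DKK3, AXIN1, TCF7 and LRP6 stood at least 1.34 above the negative controls in every pool, whereas the 5 genes above background in no pool stayed at or below 0.11.

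The number of these genes above background was 28, 25, 29 and 33 in good-donor pools 1 to 4 and 32, 29, 23 and 26 in poor-donor pools 5 to 8. The means were 28.75 ± 3.30 and 27.5 ± 3.87 genes (SD, n = 4 pools each), so the donor groups differed by less than the spread between pools. The counts separated by dye instead, with 29 to 33 genes in the Cy3 pools and 23 to 28 in the Cy5 pools. Over all probes, 66.5% to 72.7% were above background in Cy3 and 64.3% to 68.7% in Cy5. More good-donor than poor-donor pools were above background for 11 genes, more poor-donor pools for 6 and equally many for 28. The largest gap was 2 pools, for FZD2 (3 good-donor pools against 1) and SFRP5 (none against 2).

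**Figure D2:**
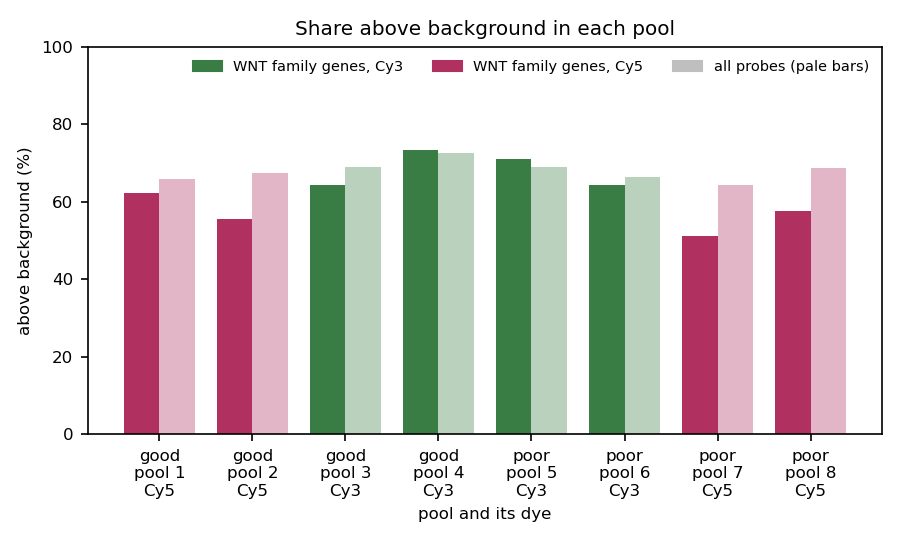
Share of the 45 WNT family genes (dark bars) and of all probes (pale bars) above background in each pool, in percent, coloured by the dye of the pool. The 4 Cy3 pools hold 64.4% to 73.3% of the genes and the 4 Cy5 pools 51.1% to 62.2%, while good-donor and poor-donor pools overlap.

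No WNT family gene passed the test for a difference between poor and good donors by the limma fit. Of the 45 genes 19 were bright enough to test, or 42.2%, where 72.1% of all named genes by their brightest probe were. An adjusted p under 0.05 was reached by 0 of them, as by 0% of all tested probes. An unadjusted p under 0.05 was also reached by 0, against 5.96% of all tested probes, and the smallest was 0.0762 for AXIN2, with an adjusted p of 0.830. A separate-channel fit in limma, which estimates the correlation between the channels of a spot, likewise called 0 and gave 2 genes, AXIN1 and AXIN2, an unadjusted p under 0.05, where 10.6% of all probes had one. Fitted ratios were above 0 for 10 genes and below 0 for 9, with a median of 0.0075, and the median over all tested genes was 7.5e-04. In 1 gene, AXIN2, the ratio was above 0 on all 4 arrays, and in none was it below 0 on all 4. The shares of all tested probes were 5.46% and 5.89%. Pool levels of good and poor donors overlapped in all 19 genes, while they were apart in 2.22% of all tested probes. The 95% interval of a ratio reached 0.23 to each side in the median gene and 0.37 at most, and it covers only the scatter of arrays that share a dye orientation. Background correction added an offset of 50 to the intensities, which draws ratios of dim probes towards 0. The intervals of dim genes therefore do not bound their differences in RNA.

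**Figure D3:**
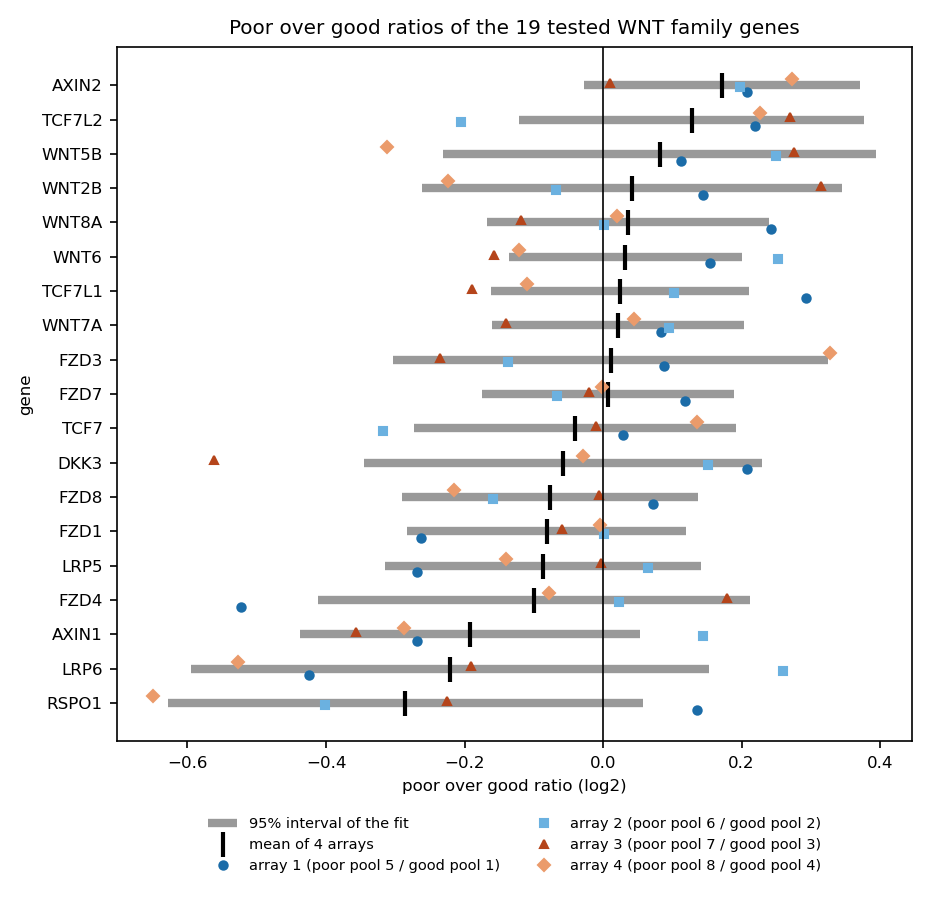
Poor over good log2 ratios of the 19 tested WNT family genes. Points are single arrays, black ticks the means of 4 arrays and grey bars the 95% intervals of the fit. Every interval includes 0, and AXIN2 is the single gene with all 4 arrays above 0.

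Of the WNT ligands 5 could be tested, and their mean ratios lay within 0.02 to 0.08. WNT2B, a ligand that signals through beta-catenin, had levels of 6.89, 6.91, 6.67 and 6.98 in good-donor pools 1 to 4 and 7.03, 6.84, 6.98 and 6.75 in poor-donor pools 5 to 8. Its poor pool was the brighter one on arrays 1 and 3 and the dimmer one on arrays 2 and 4, with ratios of 0.14, -0.07, 0.32 and -0.22 and a mean of 0.04 ± 0.24 (SD, n = 4 arrays). WNT5B, usually placed among the ligands that act without beta-catenin, measured 6.40, 6.59, 6.39 and 6.76 in good donors and 6.51, 6.85, 6.67 and 6.45 in poor donors. Arrays 1 to 3 gave ratios of 0.11, 0.25 and 0.28 and array 4 the opposite sign, -0.31, so that the mean was 0.08 ± 0.27. Levels of WNT6 were 6.68, 6.61, 6.87 and 6.83 in good donors and 6.83, 6.87, 6.71 and 6.71 in poor donors. For WNT6 the sign followed the dye orientation, with 0.15 and 0.25 where the poor pool was in Cy3 (arrays 1 and 2) and -0.16 and -0.12 where it was in Cy5 (arrays 3 and 4). A second WNT6 probe was above background in the 4 Cy3 pools and in none of the Cy5 pools, so its ratios are not given. WNT7A, above background in all 4 good-donor and 3 poor-donor pools, had a mean ratio of 0.02 ± 0.11, and WNT8A, in 3 good-donor and all 4 poor-donor pools, one of 0.04 ± 0.15.

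The other 12 ligands were too dim to test. WNT9A and WNT10B were above background in 6 pools each and WNT3 in 5. WNT8B, WNT9B and WNT16 passed the limit in 3 pools each, WNT2 and WNT3A in 2 and WNT11 in 1, beside WNT1, WNT5A and WNT10A in none. WNT3A is the ligand most used to activate beta-catenin signalling in cultured cells, and WNT5A the one most studied in signalling without it. Levels of these 12 genes never exceeded 6.70, which is at most 0.50 above the mean of the negative controls. Neighbouring ligand genes in the bovine reference annotation were not alike in this respect: WNT6 was above background in 8 pools and its neighbour WNT10A in none, and WNT10B in 6 pools and its neighbour WNT1 in none. WNT9A and WNT3A, also neighbours, reached 6 and 2 pools, and WNT3 and WNT9B 5 and 3.

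Among the 9 Frizzled receptors, which bind WNT ligands at the cell surface, 5 were tested and none passed. FZD1 had levels of 7.93, 7.57, 7.94 and 7.84 in good donors and 7.67, 7.57, 7.88 and 7.84 in poor donors. Its pools were within 0.06 of each other on arrays 2 to 4, where the ratios were 0.00, -0.06 and -0.00, and array 1 gave -0.26. The mean ratio of FZD1 was -0.08 ± 0.12 (adjusted p = 0.910, limma), with a 95% interval from -0.28 to 0.12. FZD3 measured 6.92, 6.72, 6.81 and 6.62 in good donors and 7.00, 6.58, 6.58 and 6.95 in poor donors. Ratios of FZD3 were 0.09, -0.14, -0.24 and 0.33, and their mean of 0.01 was far smaller than their SD of 0.25. FZD7 had levels of 6.50 to 6.57 in good-donor and 6.47 to 6.62 in poor-donor pools and a mean ratio of 0.01 ± 0.08.

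FZD4 and FZD8 were above background in all good-donor pools and in 3 poor-donor pools each. The FZD4 level was not above background in poor-donor pool 5, where it measured 6.17, and was 6.56 to 6.73 in the other 7 pools. Its ratio on array 1, measured as -0.52 against that pool, is therefore no exact difference, and arrays 2 to 4 gave 0.02, 0.18 and -0.08. FZD8 had a mean ratio of -0.08 ± 0.13. The 4 receptors not tested were FZD5, above background in 6 pools, FZD2 in 4, FZD9 in 1 and FZD10 in none.

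The LRP co-receptors, the other part of the receptor complex, were both above background in all 8 pools. LRP6 stood 4.38 to 5.06 above the negative controls. Its level was 11.17, 11.00, 11.16 and 11.09 in good-donor pools 1 to 4 and 10.75, 11.26, 10.97 and 10.56 in poor-donor pools 5 to 8. The poor-donor pools were more scattered (10.89 ± 0.30) than the good-donor pools (11.11 ± 0.08), and pool 6 was higher than any good-donor pool. LRP6 ratios were -0.42, 0.26, -0.19 and -0.53, with a mean of -0.22 ± 0.35 (adjusted p = 0.859, limma) and an interval from -0.59 to 0.15. With 1 array left out the fitted LRP6 ratio ran from -0.39 without array 2 (unadjusted p = 0.0279, adjusted p = 0.495, limma) to -0.049 without array 1 (unadjusted p = 0.678, adjusted p = 0.953). LRP5 measured 7.02, 6.68, 6.63 and 6.81 in good donors and 6.75, 6.75, 6.63 and 6.67 in poor donors. The good-donor pool was the brighter one on arrays 1 and 4, with ratios of -0.27 and -0.14, and the other arrays gave 0.06 and -0.00.

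R-spondins amplify WNT signalling by removing the ubiquitin ligases that take Frizzled receptors from the cell surface. RSPO1, whose loss causes sex reversal in XX humans, was the member with the lowest mean ratio. Levels of RSPO1 were 7.25, 6.77, 6.97 and 7.34 in good donors and 7.39, 6.37, 6.74 and 6.69 in poor donors. The highest value was in a poor-donor pool, number 5, and the other 3 poor-donor pools were below all 4 good-donor pools. The ratios of 0.13, -0.40, -0.23 and -0.65 averaged -0.29 ± 0.33 (unadjusted p = 0.0842, adjusted p = 0.830, limma), with an interval from -0.63 to 0.06. With 1 array left out the fitted RSPO1 ratio ran from -0.42 without array 1 (unadjusted p = 0.0330, adjusted p = 0.808, limma) to -0.15 without array 2 (unadjusted p = 0.299, adjusted p = 0.788). With mean in place of median spot intensities it was -0.14.

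RSPO3 was not tested, since it was above background in 3 pools of each donor group, and it was singled out after its values were seen. It measured 6.62, 6.28, 6.42 and 6.44 in good-donor pools and 6.75, 6.41, 7.41 and 6.32 in poor-donor pools 5 to 8. Poor-donor pool 7 stood apart from the other 7 pools, and its array gave a ratio of 0.99, where the other arrays gave 0.13, 0.13 and -0.12. The raw RSPO3 intensity in pool 7 was 109, in a channel with a background limit of 49.0. RSPO4 was above background in 5 pools and RSPO2 in 2, with levels of at most 6.44 for both.

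**Figure D4:**
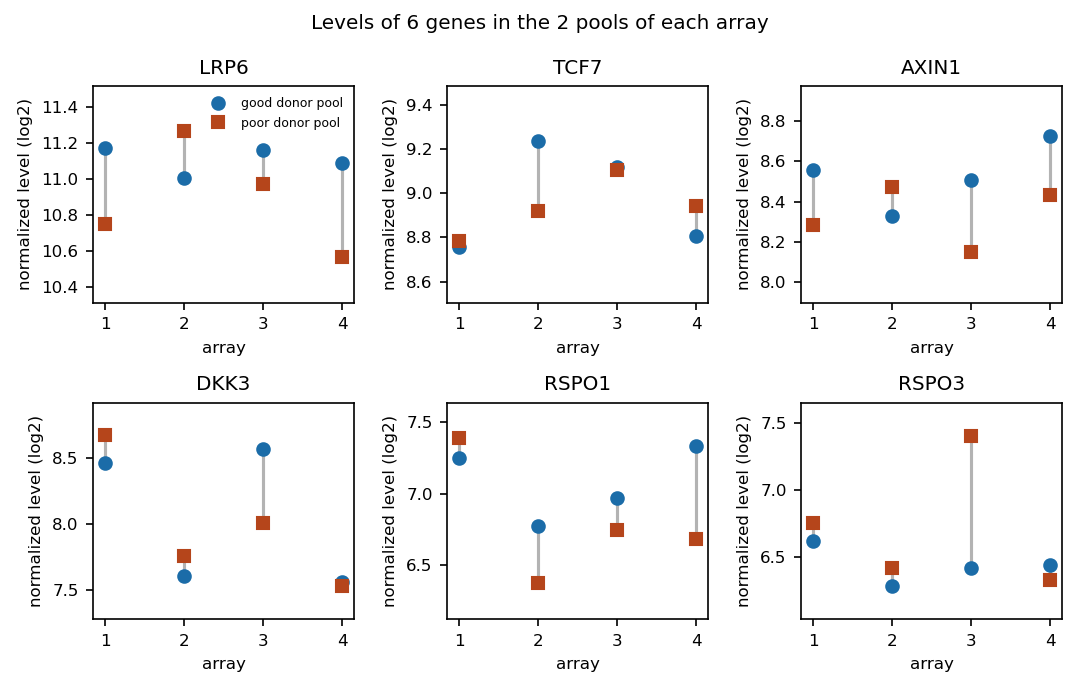
Normalized log2 levels of LRP6, TCF7, AXIN1, DKK3, RSPO1 and RSPO3 in the good-donor pool (circle) and the poor-donor pool (square) of each array, joined by a line. Each panel has its own axis, which does not start at 0. The order of circle and square changes between arrays in all 6 genes, and DKK3 moves between arrays in both pools.

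None of the SFRP genes, secreted decoys that bind WNT ligands, was bright enough to test. SFRP2 was above background in 5 pools, SFRP1 in 4, SFRP5 in 2 and SFRP4 in none. SFRP2 reached 6.99 in good-donor pool 1 and lay within 6.24 to 6.51 in the other 7 pools, and SFRP1 reached 6.76 in poor-donor pool 6 and at most 6.56 elsewhere. SFRP5 was above background in none of the good-donor pools and in poor-donor pools 5 and 6, at levels of 6.39 and 6.46, and no fold is given for it. FZD9 and WNT11 were above background in a single pool each and get none either.

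Of the Dickkopf genes, DKK3 was above background in all 8 pools. DKK3 is a divergent family member, for which binding to the LRP co-receptors is not established. Its levels were 8.46, 7.61, 8.57 and 7.56 in good-donor pools 1 to 4 and 8.67, 7.76, 8.01 and 7.53 in poor-donor pools 5 to 8. Both pools of arrays 1 and 3 were above both pools of arrays 2 and 4. The mean level of the 2 pools was 8.57, 7.68, 8.29 and 7.54 on arrays 1 to 4, a range of 1.03, and 1.60% of all tested probes had a range of at least 1. Between the donors the DKK3 ratio was 0.21, 0.15, -0.56 and -0.03, a mean of -0.06 ± 0.35 (adjusted p = 0.959, limma). The other Dickkopf genes, which include the LRP5 and LRP6 inhibitors DKK1 and DKK2, were dim: DKK1 and DKK4 were above background in 5 pools and DKK2 in 2. DKK4 was 5.89 in good-donor pool 1 and 6.36 to 6.65 in the other pools.

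The AXIN proteins, scaffolds of the complex that degrades beta-catenin, had mean ratios of opposite sign, and AXIN1 had the smallest unadjusted p of the 19 genes after AXIN2 and RSPO1. AXIN2, itself a widely used target gene of beta-catenin signalling, measured 6.92, 6.79, 6.74 and 6.74 in good donors and 7.13, 6.99, 6.75 and 7.02 in poor donors. Poor-donor pools 5, 6 and 8 were above all good-donor pools and pool 7 was below 2 of them. AXIN2 ratios were 0.21, 0.20, 0.01 and 0.27, a mean of 0.17 ± 0.11 (unadjusted p = 0.0762, adjusted p = 0.830, limma) with an interval from -0.03 to 0.37. AXIN1 measured 8.55, 8.33, 8.51 and 8.72 in good donors and 8.29, 8.47, 8.15 and 8.43 in poor donors. Array 2 was the exception among its ratios of -0.27, 0.14, -0.36 and -0.29, whose mean was -0.19 ± 0.23 (unadjusted p = 0.0986, adjusted p = 0.830, limma). Leaving out 1 array gave fitted AXIN1 ratios from -0.30 without array 2 (unadjusted p = 0.0256, adjusted p = 0.493, limma) to -0.089 without array 1 (unadjusted p = 0.337, adjusted p = 0.862). With mean spot intensities the fitted ratio was -0.058 for AXIN1 and 0.069 for AXIN2. The ratios that the authors deposited for AXIN2 were 0.26, 0.25, -0.0059 and 0.35 in the authors' deposited table, and those for AXIN1 were -0.31, 0.11, -0.36 and -0.27 in the authors' deposited table.

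The TCF7 family carries the signal to DNA as partners of beta-catenin. TCF7 measured 8.76, 9.24, 9.12 and 8.81 in good donors and 8.78, 8.92, 9.11 and 8.94 in poor donors. On arrays 1 and 3 its pools were within 0.03 of each other, and arrays 2 and 4 gave ratios of -0.32 and 0.14, so the mean was -0.04 ± 0.19. TCF7L1 had levels of 6.66, 6.75, 6.86 and 6.78 in good donors and 6.95, 6.85, 6.67 and 6.67 in poor donors. Its ratios of 0.29, 0.10, -0.19 and -0.11 averaged 0.02 ± 0.22. Of the other TCF7L1 probes one, above background in all pools, averaged 0.03 ± 0.14. Another was not above background in good-donor pool 3 and poor-donor pool 5, and its 2 ratios between pools above background were -0.36 on array 2 and 0.26 on array 4. TCF7L2 was above background in every pool but poor-donor pool 6. Its ratios were 0.22, 0.27 and 0.23 on arrays 1, 3 and 4 and, against that pool, -0.21 on array 2, with a mean of 0.13 ± 0.22. Of its other probes one was above background in 3 pools and one in none.

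The median spread of these genes between arrays was close to that of all tested genes. Their median ratio was above 0 on arrays 1 and 2 and below 0 on arrays 3 and 4. No tested member had an SD of at least 0.5 over the 4 ratios, a limit that 7.61% of all tested probes reached, and the median SD was 0.22 here and 0.22 over all tested genes. The offset in the background correction draws ratios of dim probes towards 0, and so lowers their SDs too. The median ratio of the 19 genes was 0.11, 0.02, -0.06 and -0.08 on arrays 1 to 4. Ratios were above 0 for 14, 12, 5 and 6 genes in the same order. In terms of dye, 12 of the 19 genes (63.2%) were brighter in Cy3, against 48.1% of all tested probes. An effect of the dye cannot be told apart from a poor-to-good difference that itself differed between arrays 1 and 2 and arrays 3 and 4. Pool levels spanned at least 1 in 2 of the tested genes, DKK3 and RSPO1, and in 7.56% of all tested probes.

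The rest of the WNT pathway had no gene past the adjusted threshold either. Lists of other pathway genes, chosen with earlier results of these data known, held 100 genes, of which 89 were on the array and 62 were tested. Of the 89 genes 58 were above background in all 8 pools, where 65.2% of all named genes were. By the limma fit 0 of the 62 had an adjusted p under 0.05, and the smallest was 0.822. An unadjusted p under 0.05 was found for 12 (19.4%), 4 higher and 8 lower in poor donors, beside 5.96% of all tested probes. The separate-channel fit gave 13 such genes, where 10.6% of all probes had such a p, and called 0. The median ratio over the 62 genes was -0.02. Of the 62 genes 3 had ratios above 0 and 9 below 0 on all 4 arrays, beside 5.46% and 5.89% of all tested probes. The pools of the donor groups did not overlap in 4 of the 62, and in 2.22% of all tested probes. Because earlier results were known when the lists were chosen, these shares are no test of the pathway.

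At the receptors, LGR4, which binds R-spondins, had ratios of 0.38, 0.24, 0.45 and 1.04 and a mean of 0.53 ± 0.35 (unadjusted p = 0.0081, adjusted p = 0.822, limma). A second LGR4 probe had a mean ratio of 0.44 and another probe one of -0.01. ROR2 and RYK, receptors for WNT5A among others, and PTK7, a co-receptor of the planar polarity branch, had means of 0.20 ± 0.48, -0.10 ± 0.18 and 0.15 ± 0.65. LGR5 was above background in 1 pool and not tested.

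Among other secreted modulators, APCDD1, an inhibitor that binds WNT and LRP5, measured 9.90, 9.89, 10.01 and 10.02 in good donors and 9.47, 9.69, 9.74 and 9.40 in poor donors. All poor-donor pools were below all good-donor pools. The mean ratio was -0.38 ± 0.19 (unadjusted p = 0.0117, adjusted p = 0.822, limma), and a second APCDD1 probe that was tested gave -0.11 ± 0.24. IGFBP4, a binding protein of insulin-like growth factors, had -0.10 ± 0.14. NDP, which encodes norrin, a ligand of FZD4, had ratios of -0.83, 0.99 and -1.58 on arrays 1, 2 and 4. On array 3 NDP measured 8.29 in the poor-donor pool and was not above background in the good-donor pool. A second NDP probe, above background in all 8 pools, had ratios of -0.56, 0.51, 1.23 and -0.60, a mean of 0.14 ± 0.89. Another NDP probe was above background in 3 pools.

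Of the 8 genes for WNT secretion 7 were above background in all 8 pools and all were tested, with none under an unadjusted p of 0.05. PORCN, the acyltransferase that lipidates WNT ligands, had a mean ratio of 0.19 ± 0.21. WLS, which carries the ligands to the cell surface, had -0.10 ± 0.19, and VPS26A, a retromer subunit that recycles WLS, 0.20 ± 0.36. The glypicans GPC3 and GPC4, heparan sulphate proteoglycans of the cell surface, differed widely between arrays, with SDs of 0.64 and 1.00.

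In the cytoplasm, DVL2, which relays the signal from Frizzled, measured 11.36, 11.27, 11.32 and 11.24 in good donors and 11.07, 11.09, 10.99 and 10.96 in poor donors, without overlap. Its mean ratio was -0.27 ± 0.06 (unadjusted p = 0.0105, adjusted p = 0.822, limma). APC, a subunit of the degradation complex, had 0.27 ± 0.23, with 0.15 and 0.02 for its other probes. The kinases GSK3A and CSNK1D, with mean ratios of -0.29 ± 0.42 and 0.20 ± 0.33, changed sign between arrays, and without a dye term their unadjusted p-values in limma were 0.131 and 0.201. CTNNB1, beta-catenin itself, had a mean ratio of -0.01 ± 0.16. CSNK1E, another casein kinase of the pathway, had 0.08 ± 0.33 and DACT1, which binds Dishevelled, 0.24 ± 0.57.

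Of the nuclear partners 10 were tested, with fitted ratios above 0 in 5 and below 0 in 5 and a median of -0.017. The 3 with an unadjusted p under 0.05 in limma were lower in poor donors. BCL9 and PYGO2, co-activators recruited by beta-catenin, had mean ratios of -0.33 ± 0.14 and -0.26 ± 0.07. A second PYGO2 probe, above background in all 8 pools, gave -0.06 ± 0.08. The co-repressor TLE3 had -0.34 ± 0.13, and its probes disagreed, with -0.53, 0.25 and 0.02 for the others. The unadjusted p-values of these genes were 0.0107, 0.0131 and 0.0106, and all had an adjusted p of 0.822 in limma. LEF1, a DNA-binding factor of the TCF7 type, had -0.06 ± 0.29. It was not above background in poor-donor pools 7 and 8, so its ratios on arrays 3 and 4 are no exact differences. The co-repressors TLE1 and TLE2 had 0.17 ± 0.38 and 0.09 ± 0.22.

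**Figure D5:**
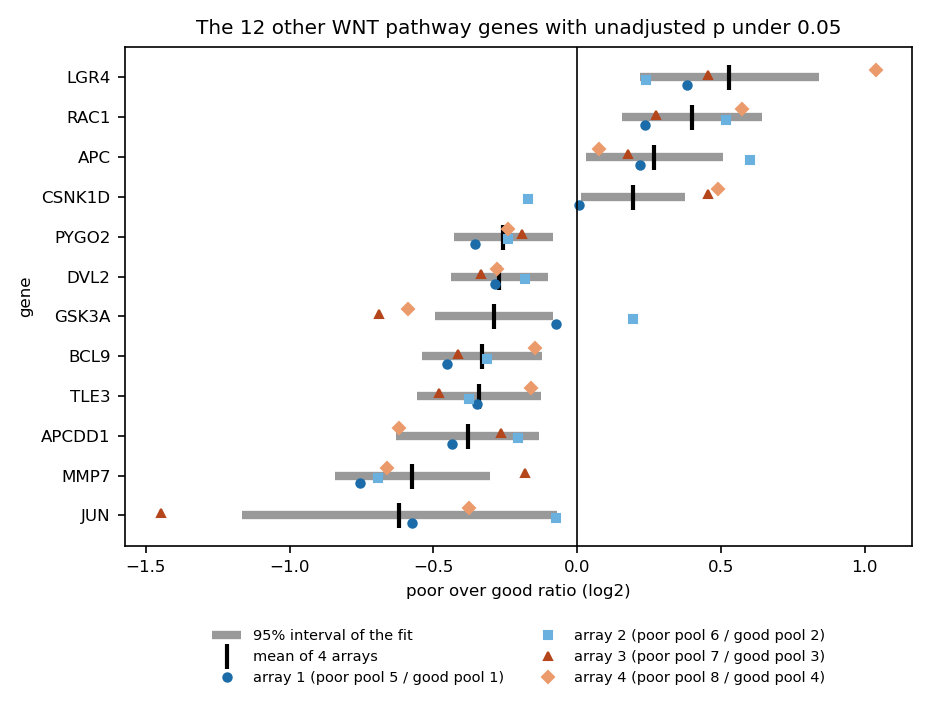
Poor over good log2 ratios of the 12 other WNT pathway genes with an unadjusted p under 0.05, out of 62 tested. Points are single arrays, black ticks the means of 4 arrays and grey bars the 95% intervals of the fit, which leave out differences between dye orientations. None passed the adjusted threshold, and GSK3A and CSNK1D have arrays on both sides of 0.

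In the branch that acts without beta-catenin, the GTPase RAC1 measured 10.18, 10.13, 10.32 and 9.95 in good donors and 10.42, 10.64, 10.59 and 10.53 in poor donors. All poor-donor pools were above all good-donor pools, with a mean ratio of 0.40 ± 0.17 (unadjusted p = 0.0092, adjusted p = 0.822, limma). VANGL1, a planar polarity membrane protein, had -0.31 ± 0.32, CAMK2D, a calcium-dependent kinase, -0.14 ± 0.42, and DAAM1, a formin that binds Dishevelled, 0.00 ± 0.42.

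Genes reported as targets of beta-catenin in other systems had mean ratios below 0 in 8 and above 0 in 4 of 12 tested, with a median of -0.09. The matrix metalloproteinase MMP7 had the smallest unadjusted p of all the pathway genes. Its levels were 7.74, 7.84, 6.94 and 7.43 in good donors and 6.98, 7.15, 6.76 and 6.77 in poor donors. The ratio was below 0 on all 4 arrays, at -0.75, -0.69, -0.18 and -0.66, with a mean of -0.57 ± 0.26 (unadjusted p = 0.0033, adjusted p = 0.822, limma). Good-donor pool 3 was below poor-donor pools 5 and 6, so the groups overlapped. JUN, a subunit of the AP-1 transcription factor, had -0.62 ± 0.59, with -1.45 on array 3, and the hyaluronan receptor CD44 had -0.17 ± 0.13. MYC, a growth regulator, had a ratio of 1.69 on array 3 and averaged 0.49 ± 0.83. CCND2, the cyclin of granulosa cell proliferation, and CYP19A1, the aromatase, had -0.03 ± 0.61 and -0.08 ± 0.71, with both signs among their arrays.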

How the data were processed

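RNA of 8 pools was amplified over 2 rounds and labelled, per the labels' protocols. The scanner tables hold spot and background intensity per channel, deposited by the authors without normalization, per the file headers. The authors also deposited a log2 ratio per probe, with a normalization not stated in the labels. It correlated at 0.971 to 0.980 with the ratios computed here, ran as poor over good, and had slopes of 1.16 to 1.22 and medians of 4.7e-04, 2.5e-04, 0.0026 and -9.9e-05 on arrays 1 to 4. It served as an alternative.

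Median intensities of 45212 spots (43794 probes, 1418 controls) were corrected in limma 3.58.1 (R 4.3.3) by normexp with an offset of 50. Loess (span 0.3, controls at weight 0) was run within arrays, and Aquantile scaling gave the pool levels. The raw limit for background lay at 42.7 to 49.3 (Cy5) and 102 to 142 (Cy3). The fit for 26181 probes (59.8%) had a dye term and 2 residual and 2.51 prior degrees of freedom. It was tested on simulated data. The arrays were 4 areas of 1 slide. Nothing states which cows form a pool, so p-values speak only of these pools. In the fit with a dye term they rest on the scatter of ratios between arrays that share a dye orientation, and the number of arrays limits precision.

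The platform annotation gives 21790 probes 1 symbol each, and the other 22004 are unnamed here. All 50 probes of the WNT families carry symbols that are current in the ARS-UCD2.0 annotation. A gene is represented by its brightest probe. The genes, lists, tests and alternatives were chosen with earlier results of these data known. Every WNT family gene is named. Values of each pool and array are given for genes above background in all 8 pools that were among the 12 brightest, the 6 of smallest p or the 6 of largest SD. From each pathway list the 3 genes of smallest p and the 3 of largest SD are named. FZD7, CTNNB1, LGR5, CSNK1D and the singled-out values of dim genes stand outside this rule. No probe sequences were used here.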

Additional observations from a re-analysis of the deposited data

Results flagged for a closer look

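In 135 groups of 4 values (the ratios of the 4 arrays, the good-donor pools and the poor-donor pools of each of the 45 genes), 7 (5.19%) had 1 value that stood apart from the other 3 past Dixon's 95% critical value for 4 values. Chance gives about 1 in 20 such groups. For TCF7L2, above background in 7 pools, the ratio of array 2 was -0.21, where the others were 0.22 to 0.27, and the level of poor-donor pool 6 was 6.32 against 6.85 to 6.95. SFRP1 was 6.76 in poor-donor pool 6 and 6.24 to 6.33 in the other poor-donor pools. The WNT10B ratio was 0.30 on array 2 and between -0.08 and -0.03 elsewhere. The other 3 genes were above background in 2 pools each. DKK2 measured 6.46 in poor-donor pool 5 against 6.28 to 6.30, WNT2 measured 6.52 in good-donor pool 1 against 6.28 to 6.31, and WNT3A had a ratio of 0.14 on array 3 against -0.03 to -0.01. In 3 of these cases 1 pool of the array was not above background, so that the ratio is no exact difference: poor-donor pool 6 for TCF7L2, good-donor pool 2 for WNT10B and good-donor pool 3 for WNT3A.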

How the results depend on the processing

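The count of 0 WNT family genes past the adjusted threshold was found under all 14 alternatives, in each of which 0 of all probes passed. The number of these genes with an unadjusted p under 0.05 was 0 in the fit reported and under 10 alternatives. It was 2 with the separate-channel fit (AXIN1 and AXIN2, beside 10.6% of all probes). Without a filter on dim probes it was 1 of 45 (AXIN2), beside 5.66% of all probes. When 1 array was left out it was 0 to 3: 1 without array 1 (RSPO1, beside 5.94% of all probes) and 3 without array 2 (AXIN1, LRP6 and TCF7L2, beside 9.38% of all probes). With an array left out, the other pathway genes with such a p numbered 7 to 15 in place of 12, with 7 without array 3 (3.94% of all probes) and 15 without array 2. With median centring in place of loess, 2 genes had an SD of at least 0.5, DKK3 (0.60) and LRP6 (0.54). The number of genes above background in all 8 pools was 12 to 17 under its alternatives. Of 642 ratios of 46 named genes under the alternatives, 34 had the opposite sign. With mean spot intensities these were CD44 (0.017), DKK3 (0.016), IGFBP4 (0.011), NDP (-0.094), TCF7L1 (-0.029), WLS (0.0034), WNT2B (-0.022), WNT5B (-0.036) and WNT6 (-0.0081). When 1 array was left out, the fitted ratio crossed 0 with lowest and highest values of -0.13 and 0.15 for FZD3, -0.19 and 0.075 for DKK3, -0.13 and 0.046 for TCF7, -0.024 and 0.072 for TCF7L1, -0.093 and 0.18 for WNT2B, and -0.065 and 0.23 for WNT5B. Among pathway genes these were -0.20 and 0.13 for CCND2, -0.10 and 0.26 for CSNK1E, -0.39 and 0.24 for CYP19A1, -0.22 and 0.22 for DAAM1, -0.065 and 0.54 for DACT1, -0.38 and 0.18 for GPC3, -0.023 and 0.94 for GPC4, -0.21 and 0.081 for LEF1, -0.75 and 1.02 for NDP, -0.11 and 0.40 for PTK7, -0.093 and 0.49 for ROR2, and -0.055 and 0.40 for TLE1. AXIN1, AXIN2, FZD1, LRP5, LRP6 and RSPO1 had no reversal among 13 WNT family genes followed, but their ratios came as close to 0 as -0.058, 0.069, -0.0026, -0.0034, -0.049 and -0.14. The causes were not tested. Each ratio already pairs the 2 pools of 1 array. No paired analysis was possible beyond this, because the replicate number is that of the array. Brightness over background limits what can be seen in the 26 genes not tested.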
